A study of Homo sapiens with 24 samples.

Results

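The Krüppel-like factors described here are KLF2, KLF3, KLF4, KLF6, KLF7, KLF9, KLF10, KLF12 and KLF13, zinc-finger transcription factors of which several are known for holding lymphocytes in quiescence. They were taken by gene name: every probe that carries 1 of these 9 names in the array files was used, which gave 13 of 41000 probes and 9 of 30142 genes. KLF2, KLF3, KLF6 and KLF13 had 2 probes each and the other genes 1. The rule itself uses no measured value.

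FOXP1 was silenced in 4 established cell lines of DLBCL, diffuse large B-cell lymphoma. DB and K422 are of the germinal-center B-cell-like subtype (GCB-DLBCL), and HBL-1 and OCI-Ly3 of the activated B-cell-like subtype (ABC-DLBCL). Cells were electroporated with siFOXP1 #1 (siFOXP1_308), siFOXP1 #2 (siFOXP1_309) or a negative control siRNA (siCtrl) and harvested after 48 h, with 3 biological replicates per line and siRNA. Each of 24 arrays compared silenced cells, labelled with Cy3, with siCtrl cells of the same line and replicate, labelled with Cy5, so values below are log2(siFOXP1/siCtrl) and a value of 1 is a 2-fold rise. All groups are transiently transfected cell lines, 2 per subtype. The labels name the same control sample for the 2 arrays of a replicate, so the arrays of siFOXP1 #1 and #2 share their 12 control samples. Because the dyes were never swapped, a dye bias of a probe and an effect of silencing cannot be told apart within a line. By the year of the scan date in the file headers, the arrays fall into 2 groups, each with 1 line of either subtype. DB goes with OCI-Ly3, and HBL-1 with K422. These groups are called scan sessions below, although scan days within a year were not told apart.

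KLF proteins bind GC-rich and CACCC sequences through their zinc fingers and activate or repress by the partners they recruit. KLF2 and KLF4 are induced by the MEK5-ERK5-MEF2 arm and by FOXO factors, KLF2 keeps T and B lymphocytes quiescent and directs their trafficking, and KLF4 restrains B-cell proliferation. KLF3 and KLF12 repress through the corepressor CtBP, KLF9, KLF10 and KLF13 through Sin3A, and KLF6 and KLF7 are broadly expressed activators. FOXP1 is a forkhead transcription factor that acts mostly as a repressor, and KLF2 is expressed in resting B cells.

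KLF2 is the member on which most of the results turn, and its promoter is shown because it carries a site of the MEF2 kind named above. The 250 bases before the start of KLF2 (RefSeq, GRCh38.p14, chr19:16324576-16324825, plus strand, 80.0% G or C) read, with the MEF2-type motif in capitals, that is CTAAA directly followed by its reverse complement TTTAG:
KLF2 promoter: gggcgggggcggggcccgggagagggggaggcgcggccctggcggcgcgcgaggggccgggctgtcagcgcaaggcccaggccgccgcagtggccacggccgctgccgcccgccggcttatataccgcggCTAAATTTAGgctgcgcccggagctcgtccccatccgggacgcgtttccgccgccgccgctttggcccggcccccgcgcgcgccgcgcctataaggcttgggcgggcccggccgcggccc
The motif reads the same on both strands and lay from -120 to -111 relative to the start. These letters were found in 20 of 35116 promoter windows of that length (0.0570%). No window of KLF4, KLF6, KLF7, KLF9, KLF12 and KLF13 held them, and windows of KLF3 and KLF10 are not given. Only this exact string, the one that KLF2 carries, was searched. Other forms of MEF2 sites were not counted, so the share is that of the string and not of MEF2 sites. The GC box GGGCGG, searched on both strands, was found 4 times in the KLF2 window and at least once in 42.6% of all windows. The forkhead core TGTTTAC occurred on neither strand of the KLF2 window and in 2.98% of all windows. A match or its absence describes these letters alone.

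The 2 probes of KLF2 gave different values. The brighter probe lies at 16299246 to 16299305 on chromosome 19 of hg18, the build of the array files, and starts at base 1555 of its transcript, and the dimmer lies at 16297204 to 16297263, starting at base 336. Of the 60 bases of each, 27 were G or C in the brighter and 45 in the dimmer. No gene model of hg18 was used here, so exon and UTR are not given. The dimmer probe of KLF2 and the dimmer probe of KLF13, which diverges from its partner in OCI-Ly3, are shown; the second covers 44280 bases of genome, at 29407265 to 29451544 on chromosome 15 of hg18, so that it crosses a splice junction:
KLF2 dimmer probe: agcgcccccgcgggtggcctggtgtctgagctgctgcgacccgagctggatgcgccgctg
KLF13 dimmer probe: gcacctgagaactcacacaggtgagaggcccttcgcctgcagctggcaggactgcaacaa
Below, a gene is represented by its brighter probe, and the dimmer probes are given apart.

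FOXP1 itself was lower on all 24 arrays. Its mean log2 ratio was -1.34 for K422, -1.74 for HBL-1, -1.96 for OCI-Ly3 and -2.00 for DB. In each line siFOXP1 #2 lowered it more than siFOXP1 #1. The share of probes that Feature Extraction flagged as well above background in a channel ran from 57.3% to 64.5%. All 6 B-cell markers examined were above background on every siCtrl channel of every line. MME and MYBL1 were above background on all siCtrl channels of DB and K422 but not of HBL-1 or OCI-Ly3. The reverse held for IRF4 and CCND2, as the subtype labels have it. The other markers of both lists did not split the lines by subtype. LMO2, BCL6 and BATF were above background on all siCtrl channels of every line, and ENTPD1 on all those of DB, HBL-1 and OCI-Ly3. Of 4 T-cell markers, between 0 and 2 were above background on all siCtrl channels of a line, and of 4 myeloid markers 1 or 2. After silencing, 3 of the B-cell markers (CD22, CD79A and CD79B) were called higher in HBL-1 and 1 (MS4A1) in OCI-Ly3. Of the myeloid markers, 2 were called lower in K422 (CSF1R and LYZ) and 1 higher in DB (LYZ), LYZ being at or near background in both. Of the 4 GCB-DLBCL markers, 2 were called higher in K422 (MME and MYBL1), and CCND2 was called lower in both ABC-DLBCL lines. The part of these changes in the KLF values was not tested. The log2 ratios of all genes had an SD per array from 0.392 to 0.572, widest on the siFOXP1 #1 array of DB replicate 3.

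Before silencing, the lines differed widely in how much of each KLF transcript they held. The control signal of the 2 arrays of a replicate was averaged, giving 3 siCtrl samples per line, and a difference was called at a limma Benjamini-Hochberg adjusted p under 0.05 and at least 2-fold. Levels are log2 signals and are compared between lines for 1 probe, never between genes. The number of arrays limits the precision.

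**Figure D1:**
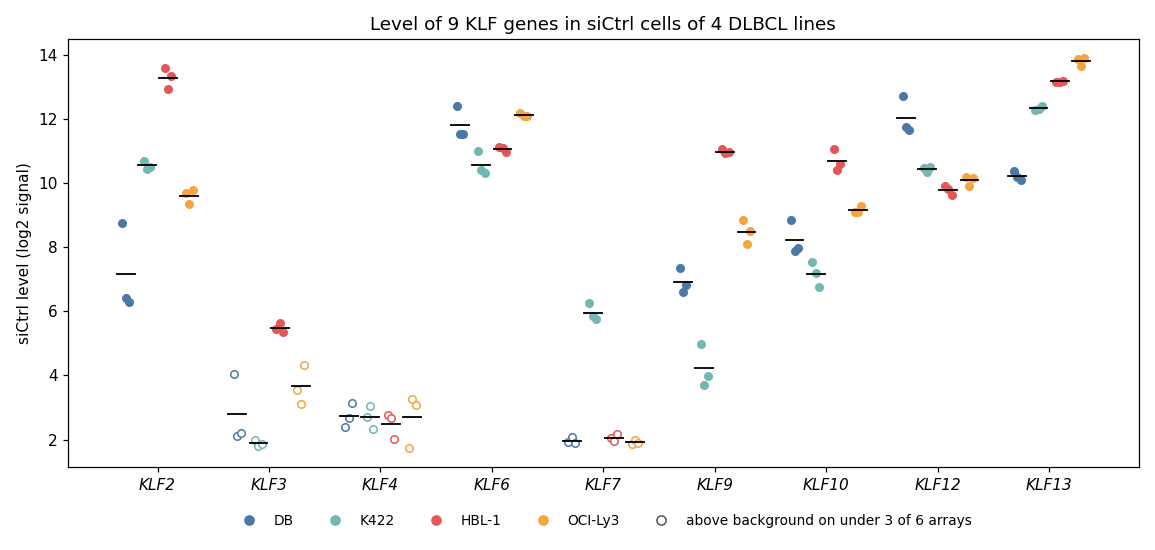
Level of each KLF gene in siCtrl cells, as log2 signal of the brighter probe, in 3 control samples per line (points) with their mean (line). Open points mark lines where the control channel was above background on fewer than 3 of 6 arrays; KLF2 and KLF9 were highest in HBL-1, KLF12 in DB and KLF13 in OCI-Ly3.

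KLF2 was most abundant in HBL-1, at 13.60, 12.93 and 13.34 in the 3 control samples. K422 followed with 10.70, 10.44 and 10.51, then OCI-Ly3 with 9.68, 9.35 and 9.78. DB was lowest and split, at 8.76 in replicate 1 against 6.42 and 6.28 in the others. Within the scan sessions, OCI-Ly3 exceeded DB by 2.45 ± 0.53 (SE) on the log2 scale (5.46-fold, limma adjusted p = 0.00272) and HBL-1 exceeded K422 by 2.74 ± 0.53 (6.68-fold, adjusted p = 0.00134). K422 and OCI-Ly3, neighbours in this order and scanned apart, did not pass the test (adjusted p = 0.173). The ABC-DLBCL line thus held more KLF2 than the GCB-DLBCL line in both sessions, with no overlap of samples.

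KLF9, a target of steroid and thyroid hormone receptors, gave the same order within each session. Its control levels were 11.05, 10.93 and 10.97 in HBL-1 against 4.97, 3.72 and 3.99 in K422, where only 3 of 6 control channels were above background. In OCI-Ly3 they were 8.83, 8.09 and 8.49, against 7.35, 6.61 and 6.83 in DB. The 4.97 of K422 replicate 1 averages unlike readings of what the labels name as the same control sample. These were 7.14 on the siFOXP1 #1 array and 2.80, not above background, on the siFOXP1 #2 array. The difference between HBL-1 and K422 was 6.76 ± 0.31 as measured, with K422 partly at background, and 4.08 after normexp and quantile normalization (limma adjusted p = 2.00e-08 and 3.22e-09). It was 1.54 ± 0.31 between OCI-Ly3 and DB (adjusted p = 0.00192). With the replicate as a block the second was not called (adjusted p = 0.0844).

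The other members were called in 1 session or neither. KLF10, a gene induced by TGF-beta, was 3.52 ± 0.28 higher in HBL-1 than in K422 (limma adjusted p = 1.74e-06), while OCI-Ly3 exceeded DB by 0.94, under the 2-fold limit. KLF12 was highest in DB, by 1.96 ± 0.23 over OCI-Ly3 (adjusted p = 3.91e-05), and KLF13, a regulator of chemokine genes in lymphocytes, was lowest there, by 3.58 ± 0.11 against OCI-Ly3 (adjusted p = 5.14e-10). Under the 2-fold limit, KLF13 was also 0.83 higher in HBL-1 than in K422 (adjusted p = 7.90e-05), so that it was higher in the ABC-DLBCL line of both sessions, and HBL-1 minus K422 was -0.66 for KLF12 (adjusted p = 0.0418). KLF6 ranged from 10.58 in K422 to 12.12 in OCI-Ly3 and was called in neither session.

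KLF7, known from neurons and lymphoid leukemia, was above background in K422 alone. Its control level there was 6.24, 5.85 and 5.77, against 1.86 to 2.17 in the samples of the other lines. HBL-1 minus K422 was -3.90 as measured, with HBL-1 at background (limma adjusted p = 1.81e-09). As a bound, KLF7 was at least 4.41-fold higher in K422 than in HBL-1. This bound sets the mean of K422 against the dimmest signal that counted as above background on each HBL-1 array, and was not itself tested. KLF3 was above background on all control channels in HBL-1 only, at 5.46, 5.63 and 5.34, at least 2.99-fold above K422 on the same kind of bound. Its measured difference, with K422 at background, was 3.59 (limma adjusted p = 7.13e-05). After normexp background correction and quantile normalization both differences fell under the 2-fold limit, at 0.66 for KLF3 and -0.76 for KLF7 (HBL-1 minus K422). KLF4 was above background on no control channel of any line.

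In all, 4 of the 9 genes were called between OCI-Ly3 and DB, where 26.3% of all genes were called, and 5 of 9 between HBL-1 and K422, where 25.6% were. KLF2 and KLF9 were called in both sessions. Leaving out DB replicate 1, whose control sample was the highest of DB for KLF2, KLF3, KLF6, KLF9, KLF10, KLF12 and KLF13, brought the count for OCI-Ly3 against DB to 6, with KLF3 and KLF10 added.

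The response to silencing was called at a limma adjusted p under 0.05 over all genes and a log2 change of at least 0.5 (1.41-fold). The genes called and their direction were not the same in every line. A call in a line and not in another is not itself a difference between lines, and tests of such differences follow below. In DB, 1 of the 9 genes was called, KLF9 lower, where 2.16% of all genes were called and 0.829% were called lower. In K422, 1 was called, KLF2 lower, against 4.44% of all genes and 2.10% lower. In HBL-1, 2 were called, KLF2 and KLF3, both lower, against 9.90% and 4.17% lower. In OCI-Ly3, the same pair was called, both higher, against 4.42% and 2.80% higher. The median over the 9 genes was highest in K422 (0.08), then 0.05 in OCI-Ly3, 0.01 in DB and -0.03 in HBL-1, where the median of all genes was 0 in each line.

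**Figure D2:**
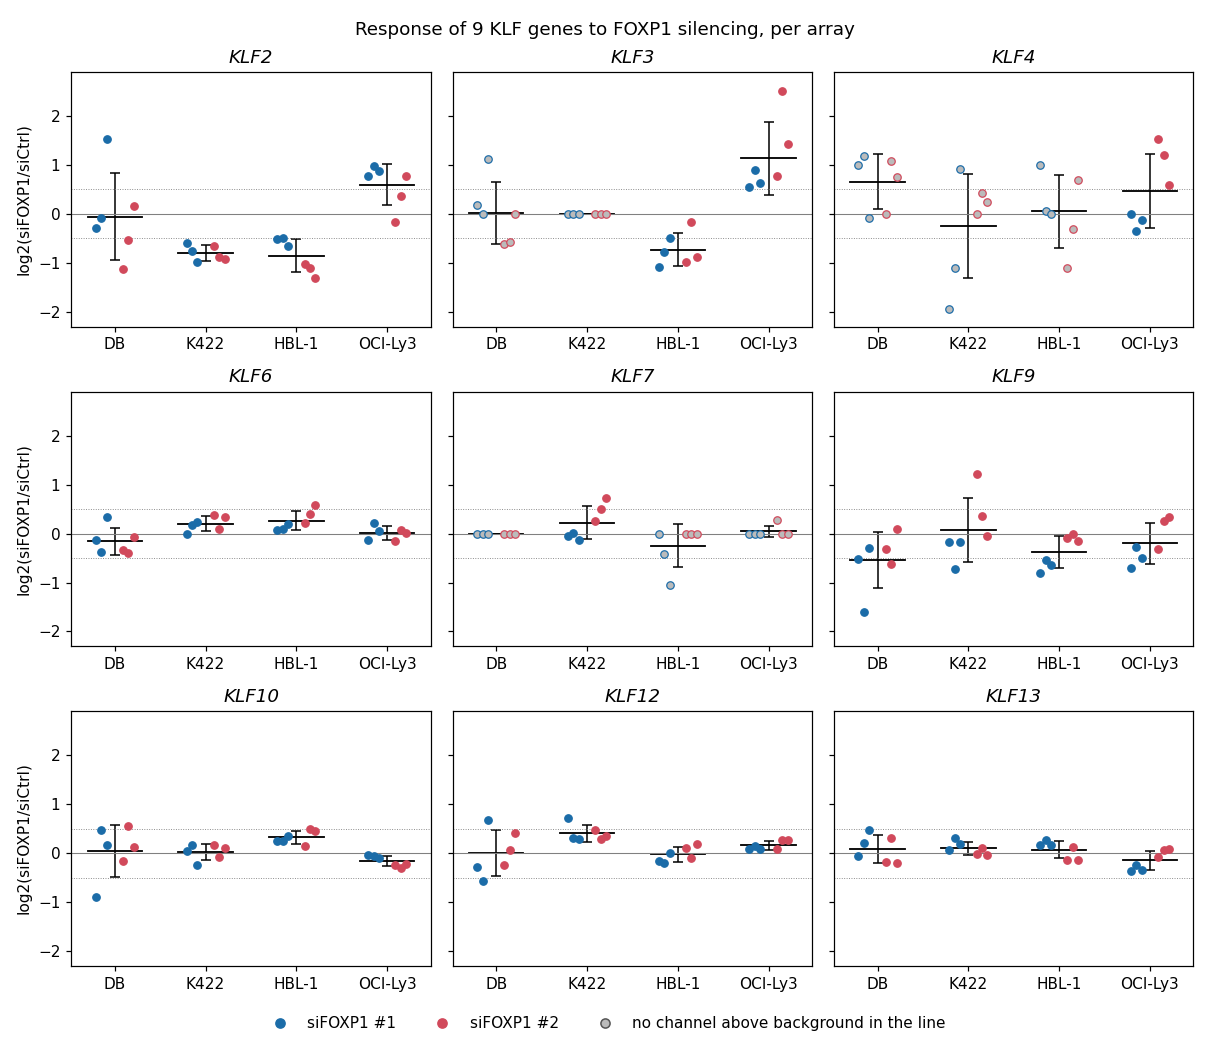
log2(siFOXP1/siCtrl) of the 9 KLF genes on each array, by line, with siFOXP1 #1 in blue, siFOXP1 #2 in red and the mean ± SD of the 6 arrays in black; dotted lines mark ±0.5, and grey points mark lines where neither channel was above background on any array. KLF2 lay below 0 on all arrays of K422 and HBL-1 and above 0 on 5 of 6 arrays of OCI-Ly3.

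KLF2, the quiescence factor that switches on S1PR1 in lymphocytes, fell in K422 and HBL-1. In K422 its log2 ratio was -0.60, -0.75 and -0.98 with siFOXP1 #1 and -0.66, -0.89 and -0.92 with siFOXP1 #2. All 6 arrays were below 0 and the siRNAs overlapped, with a mean of -0.80 ± 0.16 (SD, n = 6 arrays, 0.574-fold, limma adjusted p = 0.00458). The call was lost without K422 replicate 3 (-0.72, adjusted p = 0.0613), with the mean over both probes (-0.48, under the limit) and with either siRNA alone (adjusted p = 0.0579 and 0.0669). In HBL-1, where KLF2 was most abundant, the values were -0.51, -0.49 and -0.66 with siFOXP1 #1 and -1.03, -1.11 and -1.31 with siFOXP1 #2. Again all were below 0, here with no overlap between the siRNAs, and the mean was -0.85 ± 0.34 (0.554-fold, limma adjusted p = 0.00143), with siFOXP1 #1 alone not passing (adjusted p = 0.174).

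In OCI-Ly3, KLF2 rose. The ratio was 0.77, 0.97 and 0.87 with siFOXP1 #1 and -0.16, 0.36 and 0.78 with siFOXP1 #2, a mean of 0.60 ± 0.43 (1.51-fold, limma adjusted p = 0.0291). The arrays of siFOXP1 #1 lay close together, those of siFOXP1 #2 were spread from below 0 upward, and with siFOXP1 #2 alone the value of 0.33 did not pass (adjusted p = 0.560). The call was lost with the slide as a random block (0.48, adjusted p = 0.156), with the mean over both probes (0.34, adjusted p = 0.0894), with the methods' t-test after Benjamini-Hochberg adjustment (adjusted p = 0.0830), without OCI-Ly3 replicate 2 (0.56, adjusted p = 0.147) and without OCI-Ly3 replicate 3 (0.49, adjusted p = 0.194).

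DB gave no single direction for KLF2. Its arrays read -0.29, -0.08 and 1.53 with siFOXP1 #1 and -1.13, -0.54 and 0.17 with siFOXP1 #2, and the mean was -0.06 ± 0.89. Both arrays of replicate 3 were above 0 and all others below it. DB replicates 1 and 2 shared a slide, and replicate 3 lay on another slide with OCI-Ly3 replicate 1. Replicate 3 and its slide therefore cannot be told apart in DB. Without DB replicate 3 the value was -0.51 and was called (limma adjusted p = 0.00804).

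The change in KLF2 was not alike in the ABC-DLBCL lines. HBL-1 minus OCI-Ly3 came to -1.45 ± 0.26 (SE, limma adjusted p = 0.00131). In that contrast 2 of the 9 genes were called, both lower, against 5.00% of all genes and 2.50% lower, and the call held under all 22 alternative settings in which it was computed. It crosses the scan sessions, and it was chosen after the values were known. KLF2 was called lower in both lines of the second session and in neither line of the first, so the line and the session cannot be told apart in this contrast. Within sessions, HBL-1 minus K422 was -0.05 ± 0.26 (adjusted p = 0.985) and OCI-Ly3 minus DB was 0.65 ± 0.26 (adjusted p = 0.243), though 1.11 without DB replicate 3 (adjusted p = 4.69e-04). The mean of the ABC-DLBCL lines minus that of the GCB-DLBCL lines was 0.30 ± 0.18 (adjusted p = 0.394), though without DB replicate 3 it was 0.53 (adjusted p = 0.00335).

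**Figure D3:**
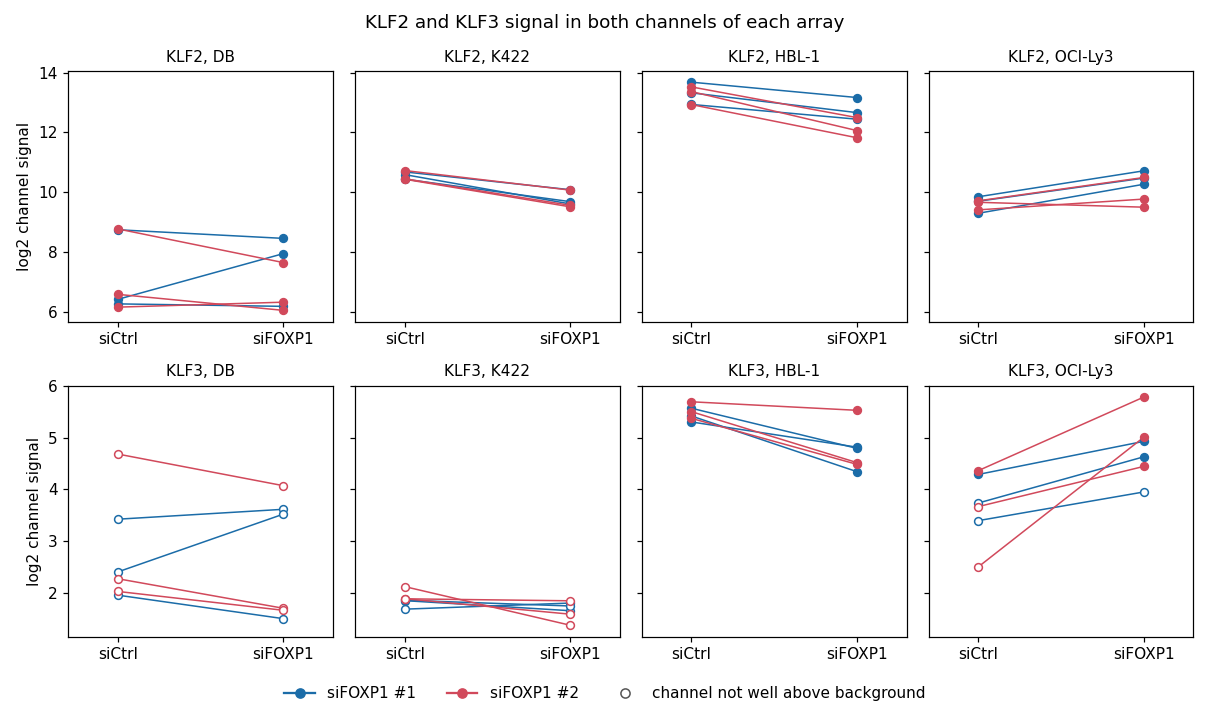
log2 signal of KLF2 (top) and KLF3 (bottom) in the siCtrl and siFOXP1 channels of each array, joined by a line, in blue for siFOXP1 #1 and red for siFOXP1 #2. Open points are channels not well above background; KLF2 signals were all above background, and KLF3 reached it on every channel in HBL-1 only.

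KLF3, which represses through CtBP and shapes marginal zone and follicular B cells, moved with KLF2 in HBL-1 and OCI-Ly3. In HBL-1 its ratios were -1.08, -0.77 and -0.49 with siFOXP1 #1 and -0.98, -0.16 and -0.89 with siFOXP1 #2. All 6 were below 0 and all channels above background, and the mean was -0.73 ± 0.34 (0.603-fold, limma adjusted p = 0.00328). Without HBL-1 replicate 1 it was -0.58 and not called (adjusted p = 0.0709). In OCI-Ly3 they were 0.55, 0.89 and 0.64 with siFOXP1 #1 and 0.78, 2.51 and 1.42 with siFOXP1 #2, a mean of 1.13 ± 0.74 (adjusted p = 1.76e-04; adjusted p = 0.0665 by the methods' t-test). All 6 were above 0, but the siCtrl channel was above background on only 2 of 6 arrays and the siFOXP1 channel on 5.

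The size of the KLF3 change depends on how signals near background were treated. After normexp background correction with an offset of 50 and loess, the OCI-Ly3 value was 0.23 and the HBL-1 value -0.25, both under the limit, with limma adjusted p of 0.00275 and 8.41e-04. In K422 and DB no channel was above background, and the K422 ratio was 0 on all 6 arrays. OCI-Ly3 minus DB was 1.11 ± 0.25 (SE, limma adjusted p = 0.0177), the single member called in a contrast with 1.43% of all genes called and 0.965% higher. That call was lost with the 2 lines of that session fitted alone (adjusted p = 0.146), without DB replicate 1 or 2, and without OCI-Ly3 replicate 2 or 3. After normexp it was 0.29 with loess and 0.28 with median centring, and 9 of 24 alternatives lost the call. HBL-1 minus OCI-Ly3 was -1.86 ± 0.25 (adjusted p = 9.91e-05), across sessions, and -0.48 after either normexp setting, under the limit.

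HBL-1 minus K422 called 0 of the 9 genes (3 at an unadjusted p under 0.05) against 4.34% of all genes, and the ABC-DLBCL minus GCB-DLBCL difference called 0 (1 at an unadjusted p under 0.05) against 2.26%, both in limma. In the former, KLF3 read -0.73 ± 0.25 (SE, adjusted p = 0.0727), with K422 at background, and was called in 7 of 24 alternatives. KLF7 read -0.47 (adjusted p = 0.0194), under the log2 limit and at background in HBL-1, and was called in 3 of 24. K422 minus DB called 0 (5 at an unadjusted p under 0.05) against 2.07%.

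Over the 24 arrays, the genes whose log2 ratio ran most like that of KLF2 among 14251 genes above background on every array were CHP (Pearson r = 0.896), NR1H3 (r = 0.890) and DCP1B (r = 0.876). Those most like KLF3 were TLE3 (r = 0.835), NFATC1 (r = 0.822) and MAP3K6 (r = 0.802). For KLF3 they run largely over values at background, since DB and K422 had no channel above it and OCI-Ly3 only 2 of 6 siCtrl channels. These correlations describe arrays that share lines, control samples and sessions. Of the 6 genes, NFATC1 had a mean of 0.73 in OCI-Ly3 and MAP3K6 of -0.57 in HBL-1, and the others stayed within 0.31 of 0 in every line.

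KLF12, the other CtBP-recruiting member, read higher in K422 by less than the limit. Its ratios there were 0.71, 0.31 and 0.29 with siFOXP1 #1 and 0.48, 0.28 and 0.36 with siFOXP1 #2, all above 0, with a mean of 0.40 ± 0.17 (limma adjusted p = 0.0165). It was also above 0 on 6 of 6 arrays in OCI-Ly3, at 0.16 ± 0.09 (adjusted p = 0.390). In HBL-1 and DB the arrays lay on both sides of 0.

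KLF9, of the Sin3A group, was called lower in DB. The DB ratios were -0.52, -1.59 and -0.30 with siFOXP1 #1 and -0.32, -0.62 and 0.09 with siFOXP1 #2, a mean of -0.55 ± 0.57 (limma adjusted p = 0.0333). All arrays but 1 were below 0, and the lowest came from replicate 2. The call was lost with the replicate as a block (adjusted p = 0.0606), without DB replicate 2 (-0.26, adjusted p = 0.388), without DB replicate 1 (-0.61, adjusted p = 0.0755) and after normexp with loess (-0.15, adjusted p = 0.153). Leaving out any HBL-1 replicate also moved it past the threshold (adjusted p from 0.0503 to 0.0528), and 13 of 27 alternatives lost the call. In HBL-1 all 6 arrays were below 0, at -0.37 ± 0.33, and the test was not passed (adjusted p = 0.0948).

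KLF9 also read lower with siFOXP1 #1 than with siFOXP1 #2 in each line. The means of #1 and #2 were -0.81 and -0.29 for DB, -0.66 and -0.09 for HBL-1, -0.49 and 0.09 for OCI-Ly3, and -0.36 and 0.51 for K422. In HBL-1 the siRNAs did not overlap, with siFOXP1 #1 from -0.80 to -0.53 and siFOXP1 #2 from -0.15 to -0.01. None of the differences passed the test in its line (limma adjusted p from 0.516 to 0.980). The siRNA with the lower KLF9 means, siFOXP1 #1, was the one that lowered FOXP1 less. A link between the depth of silencing and KLF9 was not tested.

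KLF10 and KLF13, also of the Sin3A group, stayed under the limit. KLF10 was above 0 on all HBL-1 arrays, at 0.32 ± 0.13 (limma adjusted p = 0.0530), and below 0 on all OCI-Ly3 arrays, at -0.16 ± 0.11 (adjusted p = 0.433). KLF13 lay between -0.15 and 0.10 in the 4 lines.

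KLF6, an immediate-early activator, read higher in HBL-1 by an amount under the limit, at 0.26 ± 0.19 with 6 of 6 arrays above 0 (limma adjusted p = 0.0135), and read 0.20 ± 0.15 in K422 (adjusted p = 0.0724). KLF7 could be followed in K422 only, where siFOXP1 #2 gave 0.26, 0.51 and 0.73 and siFOXP1 #1 gave -0.05, 0.01 and -0.12. The siRNAs did not overlap, and their difference of 0.55 did not pass (adjusted p = 0.334). KLF4, known to slow B-cell division, was above background in the siFOXP1 channel of 1 of 24 arrays and in no siCtrl channel, so no response could be read.

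**Figure D4:**
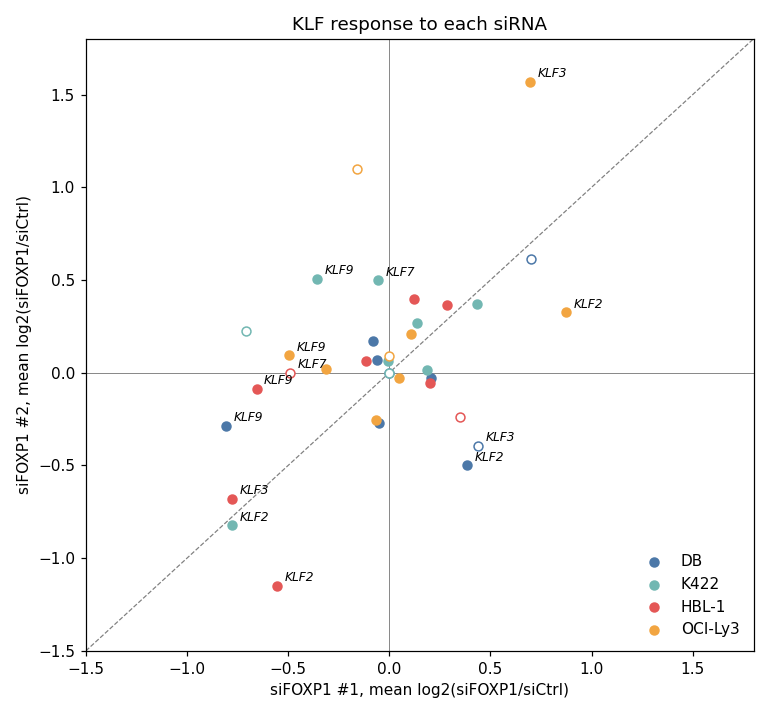
Mean log2(siFOXP1/siCtrl) of each KLF gene with siFOXP1 #1 (x axis) and siFOXP1 #2 (y axis), 3 arrays each, coloured by line; open points are genes above background on fewer than 3 of 6 arrays in both channels, and the dashed line marks equal values. KLF9 lies above the dashed line in all 4 lines, with K422 partly at background, and KLF2 below it in all 4.

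With each siRNA taken alone, 5 members were called in sum over the 8 combinations of line and siRNA. They were KLF9 in DB, KLF3 in HBL-1 and KLF2 in OCI-Ly3 with siFOXP1 #1, and KLF2 in HBL-1 and KLF3 in OCI-Ly3 with siFOXP1 #2, and in each the mean with the other siRNA had the same sign. Of all genes, siFOXP1 #1 called 6.30% in HBL-1, 2.91% in DB, 4.43% in OCI-Ly3 and 4.70% in K422. With siFOXP1 #2, HBL-1 had 10.8% called, OCI-Ly3 2.78%, K422 2.54% and DB 1.38%. The test of siFOXP1 #2 minus siFOXP1 #1 called 0 of 9 genes in each line, where it called between 0.159% (K422) and 0.302% (DB) of all genes, OCI-Ly3 having 0.192% and HBL-1 0.173%. With the replicate as a block within a line, KLF2 in DB was called, at -0.89 (limma adjusted p = 0.0490).

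**Figure D5:**
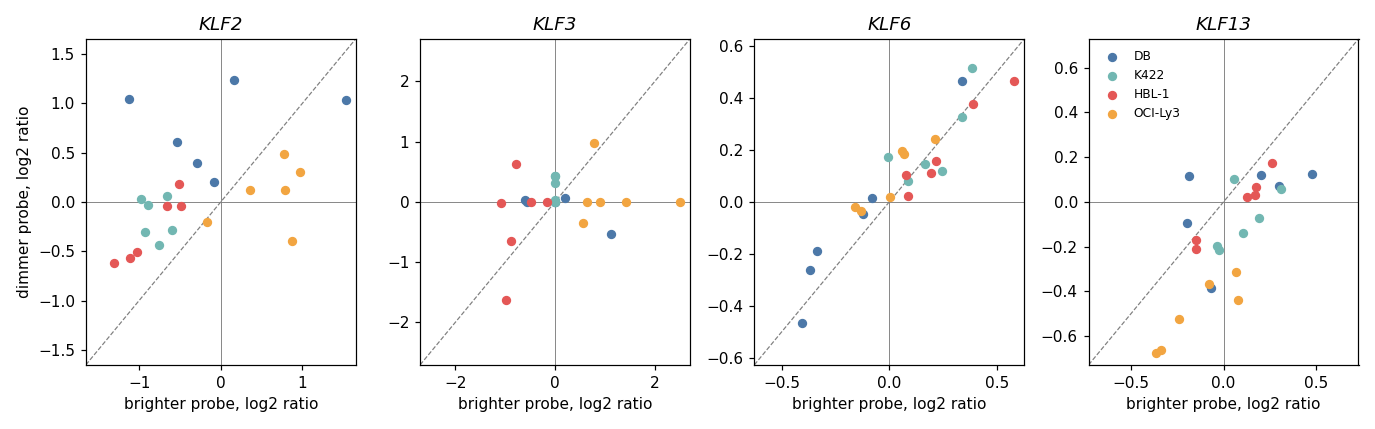
Log2(siFOXP1/siCtrl) of the brighter (x axis) and the dimmer probe (y axis) of the 4 KLF genes with 2 probes, 1 point per array, coloured by line, with the dashed line at equal values and a separate scale in each panel. KLF6 points follow the dashed line, while the OCI-Ly3 points of KLF13 lie below it.

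Probes of 1 gene differed for KLF2, KLF3 and KLF13. The dimmer KLF2 probe, shown above, gave -0.16 for K422, -0.27 for HBL-1 and 0.07 for OCI-Ly3, none of them called (limma adjusted p = 0.380, 0.0896 and 0.762 over all probes). In HBL-1 it was below 0 on all 3 arrays of siFOXP1 #2, at -0.51, -0.57 and -0.62, and near 0 with siFOXP1 #1. In DB it was higher on 6 of 6 arrays and called, but no DB control channel was above background, so no fold is given.

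The dimmer KLF13 probe was lower in OCI-Ly3 on all 6 arrays, at -0.67, -0.53 and -0.66 with siFOXP1 #1 and -0.37, -0.31 and -0.44 with siFOXP1 #2. Its mean of -0.50 ± 0.15 lay just inside the limit and was not called because of its size, with a limma adjusted p under the threshold, and the brighter probe gave -0.15 ± 0.20. The KLF6 probes gave 0.26 and 0.21 in HBL-1 and 0.20 and 0.23 in K422. The dimmer KLF3 probe was above background on at most 2 arrays of any line and was called nowhere. Of the 13 probes, DB had 2 called (2.17% of all probes), K422 1 (4.25%), HBL-1 2 (9.88%) and OCI-Ly3 2 (4.62%).

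Genes that act above and below the KLF factors were counted from lists of known members. Of 8 genes that act above KLF2 and KLF4, namely the kinases MAP2K5 and MAPK7, the MEF2 factors, FOXO1 and FOXO3, 0 were called in DB and K422, 1 was higher in HBL-1 and 1 lower in OCI-Ly3. The shares of all genes called, against which these and the counts below are to be read, were 2.16% for DB, 4.44% for K422, 9.90% for HBL-1 and 4.42% for OCI-Ly3. MEF2C, the main MEF2 factor of B cells, rose by 0.60 ± 0.19 in HBL-1 (6 of 6 arrays, limma adjusted p = 6.04e-05), where KLF2 fell. MEF2A fell by 0.51 in OCI-Ly3 (6 of 6 arrays lower, adjusted p = 1.91e-04), where KLF2 rose. A part of these MEF2 changes in the KLF2 values was not tested. The list median was lowest in DB (0.04), then 0.09 in OCI-Ly3, 0.18 in HBL-1 and 0.19 in K422.

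Of 9 trafficking and homing genes linked to KLF2, 0 were called in DB, 1 was higher in K422, 2 were higher and 1 lower in HBL-1, and 2 were higher in OCI-Ly3. S1PR1, the egress receptor that KLF2 activates, rose by 1.43 ± 0.45 in OCI-Ly3 on 6 of 6 arrays (limma adjusted p = 8.95e-09). There KLF2 was also higher, as was FCER2, the low-affinity IgE receptor, by 0.51 ± 0.35 (adjusted p = 2.34e-04). S1PR1 was called in no other line, K422 and HBL-1, where KLF2 fell, included. Whether genes of this list followed KLF2 was not tested. In HBL-1, the integrin subunit ITGB7 fell by 0.54 on 6 of 6 arrays (adjusted p = 8.51e-06), beside KLF2.

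In the same line the chemokine receptor CXCR4 rose by 2.43 ± 0.87 and the retention receptor CD69 by 1.63 ± 0.49, each on 6 of 6 arrays (limma adjusted p = 1.32e-08 and 1.14e-04). CXCR4 also rose in K422, by 1.16 ± 0.60 (adjusted p = 1.03e-04), where KLF2 fell. The list median was 0.26 in OCI-Ly3 and from -0.06 to -0.02 in the other lines, against 0 for all genes. Between the subtypes, 3 of the 9 were called higher in ABC-DLBCL, where 2.26% of all genes were called: S1PR1 by 0.54, CXCR4 by 0.58 and CD69 by 1.39 (limma adjusted p = 6.10e-04, 0.0398 and 0.00288).

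Of 10 cell cycle brakes and quiescence genes, 1 was higher and 1 lower in DB, 0 were called in K422, 2 were higher and 1 lower in HBL-1, and 1 was lower in OCI-Ly3. BTG1 and BTG2, antiproliferative factors of resting lymphocytes, rose in HBL-1 by 0.72 ± 0.16 and 0.99 ± 0.22 (limma adjusted p = 0.00311 and 4.06e-08). BTG2 also rose in DB, by 0.65 ± 0.31 (adjusted p = 3.20e-05), where the inhibitor CDKN1B fell by 0.56 (5 of 6 arrays lower, adjusted p = 0.0386). CCND2, a D-type cyclin that drives the cycle, fell by 0.99 in HBL-1 and by 0.60 in OCI-Ly3 on all arrays (adjusted p = 1.90e-04 and 0.0195).

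Of 7 genes of the TGF-beta arm that acts above KLF10, SMAD3 rose in both ABC-DLBCL lines, by 0.66 ± 0.13 (OCI-Ly3) and 0.96 ± 0.42 (HBL-1) (6 of 6 arrays each, limma adjusted p = 9.19e-06 and 4.87e-08). Its ABC-DLBCL minus GCB-DLBCL difference was 0.81 (adjusted p = 2.16e-06). TGFBR2 was called lower in K422 with no channel above background, and the other 5 were called in no line.

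Of 11 partners and ubiquitin ligases that act on KLF proteins, HDAC1 rose by 0.59 ± 0.07 in HBL-1 (6 of 6 arrays, limma adjusted p = 8.20e-09) and the coactivator EP300 fell by 0.58 in OCI-Ly3 (6 of 6 arrays, adjusted p = 0.00117), and 0 were called in DB or K422. Of 12 immediate early genes, EGR1 and EGR2 rose in HBL-1 by 0.87 ± 0.45 and 1.22 ± 0.43 (adjusted p = 0.0126 and 0.0140), and EGR1 was 0.89 higher in ABC-DLBCL than in GCB-DLBCL (adjusted p = 0.0358). EGR2 was also called in OCI-Ly3, where its siCtrl channel was above background on no array. NR4A1 fell by 0.75 in K422 (adjusted p = 0.00239), where EGR3 was called lower with its siFOXP1 channel above background on no array. IER3 fell by 0.52 in DB (adjusted p = 0.0274).

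Among the 8 other KLF genes, KLF16 rose by 0.70 ± 0.29 and KLF8, a CtBP-recruiting relative of KLF3 and KLF12, by 0.84 ± 0.30 in HBL-1 (limma adjusted p = 3.23e-06 and 0.00663), and KLF5 fell there by 0.58 (adjusted p = 0.0368). The siCtrl channel of KLF8 was above background on 3 of 6 arrays. KLF5 means outside HBL-1 were also negative but not called: OCI-Ly3 -0.32, K422 -0.37 and DB -0.54. KLF14 was below 0 on all 24 arrays. Its mean of -0.52 for OCI-Ly3 (limma adjusted p = 2.95e-06) was the only one past the size limit. HBL-1 (-0.48), K422 (-0.35) and DB (-0.27) stayed under it, with adjusted p of 2.00e-06, 1.25e-04 and 0.00217. The ABC-DLBCL minus GCB-DLBCL difference of KLF14 was -0.18, also under the limit. A dye bias of its probe was not tested. KLF17 was called lower in all 4 lines, with neither channel above background in DB or K422. Of the 7 SP genes on the array, SP5 rose in HBL-1 by 0.62 ± 0.27 (adjusted p = 5.17e-06), and SP4 was called lower in OCI-Ly3, above background on only 3 siFOXP1 and 2 siCtrl channels of 6.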

How the data were processed

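The deposited Agilent Feature Extraction output (versions 10.5.1.1 for DB and OCI-Ly3 and 10.7.3.1 for K422 and HBL-1, per the file headers) gives the intensity of both channels and the log10 ratio of Cy5 to Cy3, background-subtracted and dye-normalized within each array by the authors. The authors also deposited a value table of log2 ratios, used as an alternative; its column medians ran from -0.17 to 0.07. Each ratio was turned to log2(siFOXP1/siCtrl). The 1639 control spots and 113 to 469 outlier spots per array were left out, and spots of a probe were averaged. The probe brightest over all arrays stood for a gene. Per the file headers, surrogate values replace signals at background, and some such ratios are 0.

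R 4.3.3 with limma 3.58.1 fitted 1 mean per line and siRNA over 24 arrays, adjusting p over all genes tested and averaging both siRNAs to give the value of a line. The error of a gene was estimated over all lines together, so the SD printed for a line is not the spread behind its limma p. Levels came from Aquantile-normalized Cy5 signals averaged within the 12 control samples. Replicate numbers were taken to pair arrays because the labels name a shared control sample. Same-numbered arrays had deviations correlated from 0.05 to 0.28 over all genes. Over genes mostly above background in both channels the range was 0.09 to 0.53. The main fit has no block, so its p-values treat arrays that share a control sample as independent. The replicate block is given as an alternative. On simulated ratios for 29172 genes, between 96.0% and 98.0% of changes of 1.5 and between 78.0% and 80.0% of changes of 0.8 were recovered per line. The simulated arrays had independent normal noise, with no shared control samples or slides and no surrogate values at background. These shares therefore do not measure recovery in the real arrays.

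The KLF genes, the lists of related genes and the markers were chosen with earlier results of these data known. Named genes are the KLF genes, FOXP1, list genes called in a line or between subtypes, and the 3 genes most alike to each KLF gene called in at least 2 lines. Coordinates are hg18 as in the files; promoters are from RefSeq. A gene of the trafficking list is not reported here.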

Additional observations from a re-analysis of the deposited data

Results flagged for a closer look

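The response of KLF2 differed between HBL-1 and OCI-Ly3, by -1.45 (limma adjusted p = 0.00131), and so did that of KLF3, by -1.86 (adjusted p = 9.91e-05). The KLF3 difference was -0.48 and no longer called after either normexp setting, and its siCtrl channel was above background on 2 of 6 arrays in OCI-Ly3. For KLF3, OCI-Ly3 minus DB was 1.11 (adjusted p = 0.0177), but no DB channel was above background, so the size rests on values at background. It was 0.28 to 0.29 after normexp, and 9 of 24 alternatives lost the call. Among the 34 groups of 6 arrays with any spread, 1 held an array far from the others: KLF7 read 0.28 on the siFOXP1 #2 array of OCI-Ly3 replicate 1 and 0 on the other 5, with no channel above background. Chance alone flags about 1 group in 20 where values spread normally. With 5 ratios at 0, any other value is flagged whatever its size, so that rate does not apply to this group.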

How the results depend on the processing

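No called KLF value turned direction under the settings tried, 34 in all. The number called in DB (1) went to 0 after normexp with loess or with median centring, with the replicate or the slide as a block, with DB fitted alone, with siFOXP1_309 alone, with the methods' t-test and at a log2 limit of 1. In K422 (1) it went to 0 with the mean over probes, with either siRNA alone and at the limit of 1. In HBL-1 (2) it was 1 after normexp with loess, with both channels above background and with either siRNA alone, and 0 at the limit of 1. In OCI-Ly3 (2) it was 1 after either normexp setting, with both channels above background, with the mean over probes, with the slide as a block, with either siRNA alone and at the limit of 1, and 0 with the methods' t-test. The count between OCI-Ly3 and DB (1) went to 0 after normexp with median centring, with both channels above background, with the slide as a block, in that scan session alone and with siFOXP1_308 alone. Between HBL-1 and K422 (0) it was 1 after normexp with median centring, in the authors' value table, with at least 1 channel above background, with the mean over probes and in that session alone. Between K422 and DB (0) it was 1 after either normexp setting, in the value table and with the mean over probes, and between HBL-1 and OCI-Ly3 (2) it was 1 after either normexp setting and with both channels above background. The sum over siRNAs and lines (5) was 9 in the value table, with at least 1 channel above background and with the replicate block, and 3 with the slide as a block. The siRNA difference (0) called 1 with the replicate block, KLF2 in DB. The sum over probes (7) was 3 after normexp with loess and 4 with median centring. The siCtrl level of HBL-1 against K422 (5) called 3 after normexp and quantile normalization. With each replicate left out in turn, the counts ran from 0 to 2 in DB, 0 to 1 in K422, 1 to 2 in HBL-1 and 1 to 2 in OCI-Ly3, from 0 to 1 for ABC-DLBCL minus GCB-DLBCL, 0 to 2 for OCI-Ly3 minus DB, 0 to 1 for HBL-1 minus K422, 0 to 3 for K422 minus DB and 2 to 12 over siRNAs and lines. Without the siFOXP1_308 array of DB replicate 3, a setting chosen after seeing the data, the counts were 2 for OCI-Ly3 minus DB, 1 for HBL-1 minus K422 and 1 for K422 minus DB. The replicate block changed no other count of calls by over 1.5 times. Signal over background limits KLF3, KLF4 and KLF7 most.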
